A study of Homo sapiens with 15 samples.

Results

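The clustered protocadherin genes were described across 15 RNA-seq libraries of HEK-293T, a human embryonic kidney cell line. The genes were chosen by name and position, as every row on chromosome 5 of the deposited table named PCDHA, PCDHB, PCDHGA or PCDHGB with a number, or as one of the C-type genes PCDHAC1, PCDHAC2, PCDHGC3, PCDHGC4 and PCDHGC5. They came to 53 of 35805 rows, with 15 alpha, 16 beta and 22 gamma genes, and 26 of them (1 alpha, 3 beta and all 22 gamma genes) reached a log2 level of at least -2 in at least 3 libraries and were among the 16787 genes tested. The 5 groups held 3 libraries each. They were untransduced cells, labelled wild-type, and cells given Cas9 and 1 guide from a lentivirus, namely sg1-Control or sg2-Control, or one of the guides to THAP1, sg1-THAP1 and sg2-THAP1. The cells that received guides carried GFP in their PSMB5 locus and an exogenous copy of PSMB5, and the sgTHAP1 cells were a sorted population with low GFP, not clones. Whether the untransduced cells carried the same reporter is not given in the sources used here. Levels are log2 RPM, the reads of a gene scaled by the total reads of its library.

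Clustered protocadherins are homophilic cell adhesion molecules of the cadherin superfamily, best known in neurons, where each cell expresses a few of them and thereby gains a surface identity. Each alpha or gamma gene begins with its own large variable exon, which has its own promoter and encodes the extracellular, transmembrane and first cytoplasmic part, and this exon is spliced to constant exons that encode the end of the cytoplasmic tail of every member of the cluster. Beta genes consist of a variable exon alone. Promoters of most members carry a short element with the letters CGCT, and their choice involves CTCF, cohesin, DNA methylation and the silencer SMCHD1.

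The constant exons decide what the deposited rows hold, so their positions come first. In GENCODE release 44 on GRCh38, all 15 alpha genes shared exons at chr5:140978949-140979007, chr5:140982475-140982563 and chr5:141009627-141012347. These 3 exons hold 2869 bases in common, of which the first 2 and the start of the third are coding. All 22 gamma genes shared exons at chr5:141494807-141494865, chr5:141505393-141505481 and chr5:141510947-141512975, with 2177 bases in common. The first constant exon is shown for both clusters because a read from it lies in every row of its cluster. The sequences are from the plus strand of GRCh38, and capitals mark positions at which they differ (39 of 59 bases were identical).
alpha first constant exon: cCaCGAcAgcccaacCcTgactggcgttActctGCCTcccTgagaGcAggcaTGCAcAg
gamma first constant exon: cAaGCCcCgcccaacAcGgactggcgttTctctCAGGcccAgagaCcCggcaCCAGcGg

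The 250 bases before the transcription start are shown for the 3 genes with the most reads of their own in the alpha and gamma clusters (PCDHA10, PCDHGA11 and PCDHGC4), as listed by RefSeq on GRCh38.p14, plus strand. Capitals mark CGCT on either strand, so that AGCG is CGCT on the other strand. PCDHGC4 lies at chr5:141484780-141485029, PCDHGA11 at chr5:141420801-141421050 and PCDHA10 at chr5:140855647-140855896.
PCDHGC4: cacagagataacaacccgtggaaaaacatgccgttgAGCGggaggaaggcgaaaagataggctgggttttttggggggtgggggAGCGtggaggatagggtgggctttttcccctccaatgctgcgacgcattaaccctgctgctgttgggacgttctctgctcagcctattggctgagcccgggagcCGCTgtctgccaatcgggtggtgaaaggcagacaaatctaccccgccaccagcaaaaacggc
PCDHGA11: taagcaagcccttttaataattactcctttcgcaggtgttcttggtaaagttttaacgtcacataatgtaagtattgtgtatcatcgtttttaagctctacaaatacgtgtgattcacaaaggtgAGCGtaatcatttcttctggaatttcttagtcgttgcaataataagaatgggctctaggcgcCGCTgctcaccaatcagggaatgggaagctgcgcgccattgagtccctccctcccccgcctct
PCDHA10: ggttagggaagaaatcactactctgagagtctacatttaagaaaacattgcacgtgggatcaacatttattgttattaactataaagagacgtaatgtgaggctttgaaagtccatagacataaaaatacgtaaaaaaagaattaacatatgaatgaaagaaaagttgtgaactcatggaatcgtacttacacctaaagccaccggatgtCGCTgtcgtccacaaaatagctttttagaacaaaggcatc

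RefSeq promoters were matched for 47 of the 53 genes. The letters CGCT stood on 1 strand or the other in 45 of the 47, or 95.7%, against 67.2% of 27305 genes with a promoter of this length, and PCDHA9 and PCDHB8 had no match. CGCT occurred 3 times before PCDHGC4, 2 times before PCDHGA11 and 1 time before PCDHA10. The letters TNNNGGCA, the core of the binding consensus of THAP1, were searched on both strands in the same way, and matches of the 2 motifs were counted separately where they overlapped. They stood before 11 of the 47 genes, or 23.4%, against 40.6% of the 27305 genes, and in none of the 3 promoters shown. For both motifs a gene counted if any of its listed promoters matched, so genes with more promoters listed had more chances of a match. Such matches describe letters and are not evidence of binding. A match to CGCT alone also does not show that the promoter element is present.

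Library totals ran from 30400149 to 56638461 reads, as recovered from the steps between low values. THAP1, the targeted gene, had log2 levels of 3.25 to 3.57 in the 9 libraries without a THAP1 guide, 5.48 to 5.56 with sg1-THAP1 and 6.06 to 6.18 with sg2-THAP1, so its transcript was higher and not lower with its guides (log2 difference from sgControl 2.38, SE 0.11, limma adjusted p = 6.28e-13). A transcript level does not measure the edit. Of the human genes used as markers of the line, IRS4 (log2 7.28 to 8.74), NEFM (8.09 to 8.89) and NEFL (5.77 to 6.62) were abundant in all 15 libraries, WT1 (2.13 to 2.83) was intermediate, and PAX2 (0.13 to 1.55) and LHX1 (-0.52 to 0.69) were low. These markers moved with the guides: from sgControl to sgTHAP1 cells IRS4 fell by 1.40 (limma adjusted p = 6.30e-20) and NEFM rose by 0.51 (adjusted p = 6.34e-07), and their part in the results below was not tested. In a bulk library, fewer cells with a transcript and less transcript per cell cannot be told apart.

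Alpha genes were close to silent, with 1 exception. PCDHA10, a variable member of the cluster, had 13, 36 and 26 reads in untransduced cells, 22, 25 and 13 with sg1-Control, 20, 26 and 14 with sg2-Control, 3, 12 and 11 with sg1-THAP1, and 8, 9 and 14 with sg2-THAP1. It had reads in every library. In sgTHAP1 cells the most reads were 14, in sg2-THAP1 replicate 3 (0.293 RPM). Scaled to the library total, sg1-THAP1 replicate 2 was the highest of these, with 12 reads (0.381 RPM). The other 14 alpha genes had at most 9 reads in any library and 0 reads in 3 to 8 of the 15 libraries, and none passed the filter on low values. PCDHA11 was the next highest, with 0, 3 and 3 reads in untransduced cells, 3, 9 and 3 with sg1-Control, 1, 7 and 0 with sg2-Control, 1, 1 and 0 with sg1-THAP1, and 3, 1 and 4 with sg2-THAP1. PCDHA12 followed with 0, 1 and 4, then 5, 9 and 0, then 1, 8 and 0, then 0, 0 and 0, and then 0, 1 and 6 reads in the same order of groups.

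Among these low rows the highest values fell in the same libraries. The C-type genes PCDHAC1 and PCDHAC2, which in neurons escape the random choice of promoters, had 9 reads each in sg1-Control replicate 2 and 7 reads each in sg2-Control replicate 2, and the lowest alpha row also had 9 and 7 reads there. Elsewhere PCDHAC1 had at most 3 reads, apart from 8 in sg2-THAP1 replicate 3, and PCDHAC2 at most 3, apart from 4 in that library, where the lowest row had 4. In each library 9 to 14 of the 15 alpha rows equalled the lowest row exactly. The lowest alpha row bounds from above the reads in the shared exons, and it came to 0 to 9 reads a library. After its subtraction PCDHA10 kept 228 of its 252 reads, or 90.5%. Over the 15 libraries these own reads came to 0.033 RPM per kb of its exons outside the shared ones, and the shared alpha exons to 0.013 RPM per kb. In untransduced replicates 1 and 2, sg1-Control replicate 3 and sg2-Control replicate 3, PCDHA10 had 13, 36, 13 and 14 reads. The lowest row had 0 reads in these libraries, so the reads lay outside the shared exons. GENCODE lists 4 PCDHA10 transcripts, 1 of them without the shared exons. Whether the reads came from mRNA spliced to the constant exons was not tested. A count of 0 allows up to 3 reads, or 0.053 to 0.0987 RPM in these libraries, and this limit covers counting error only.

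Beta genes, which share no exon, showed 3 members above the filter. PCDHB2 had 19, 9 and 9 reads in untransduced cells, 18, 11 and 13 with sg1-Control, 16, 12 and 18 with sg2-Control, 7, 8 and 5 with sg1-THAP1, and 3, 6 and 28 with sg2-THAP1. Scaled to the library total, the highest log2 levels were -0.68 in untransduced replicate 1 and -0.77 in sg2-THAP1 replicate 3. PCDHB14 had 9, 1 and 5 reads, then 10, 9 and 7, then 19, 4 and 18, then 3, 1 and 3, and then 3, 9 and 9 in the same order. PCDHB15 had 9, 9 and 6, then 10, 14 and 3, then 9, 3 and 13, then 7, 6 and 5, and then 14, 10 and 6. The groups of all 3 genes overlapped. The other 13 beta genes had at most 7 reads in a library and 0 reads in 4 to 14 libraries, and PCDHB1, PCDHB4, PCDHB6 and PCDHB7 never had more than 1 read. The rows of PCDHB9 and PCDHB10 overlap, and the row of PCDHB3 spans PCDHB4, PCDHB5 and part of PCDHB6, so a read there may lie in more than 1 row.

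**Figure D1:**
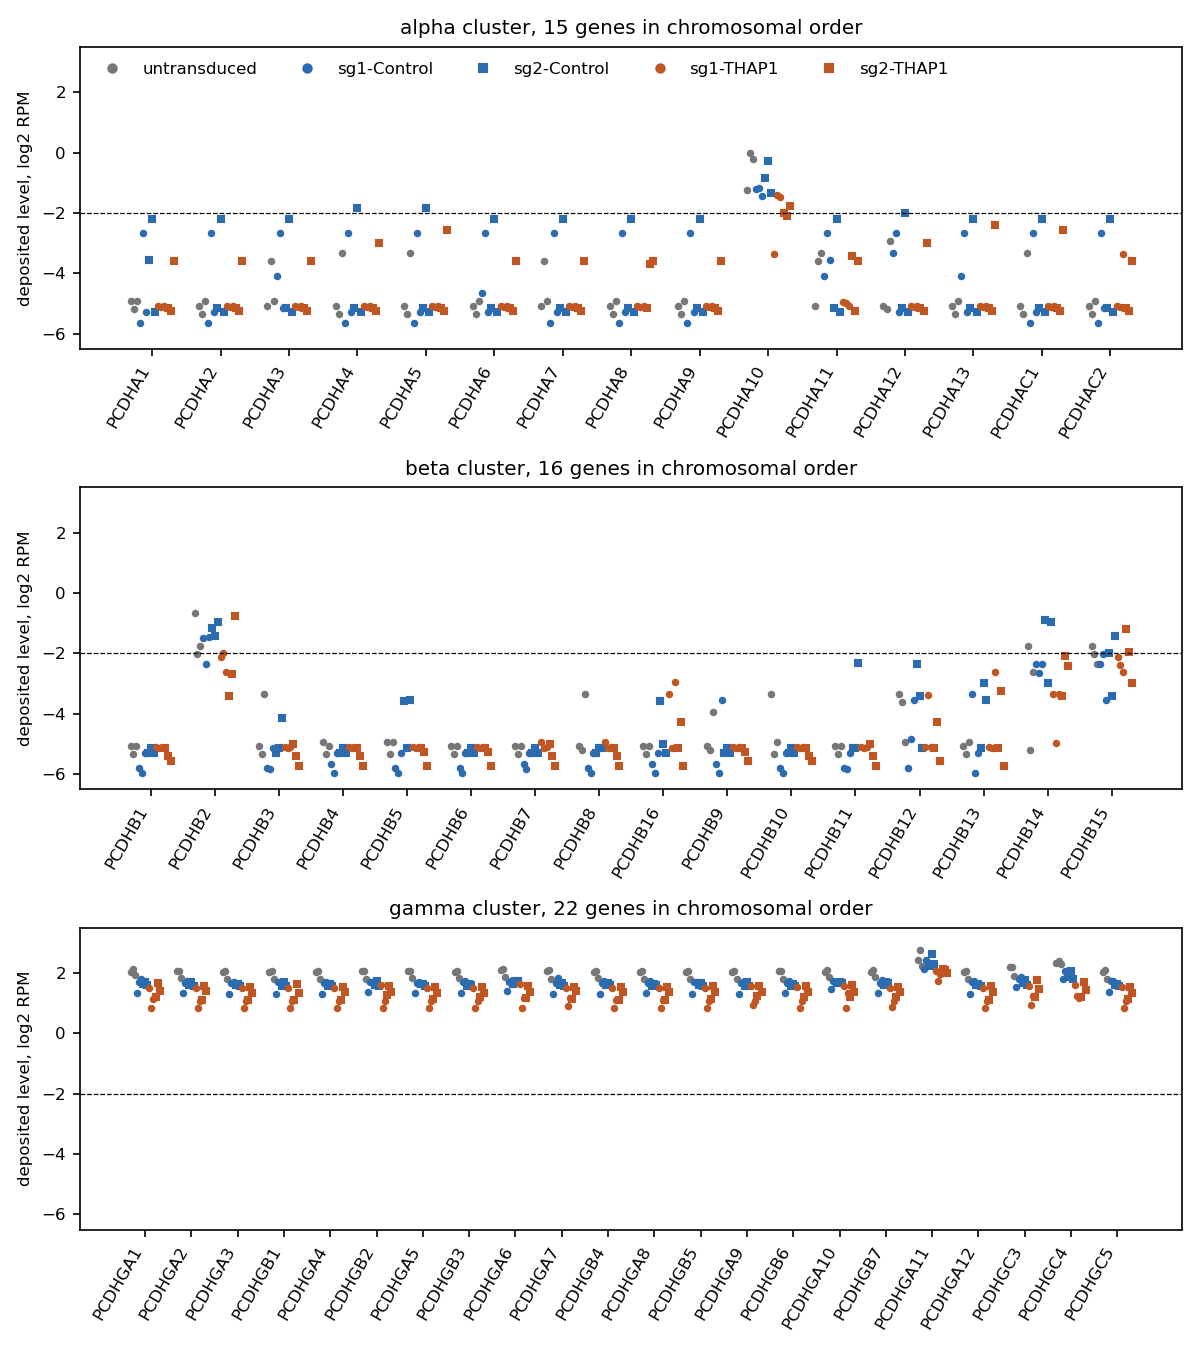
Deposited level (log2 RPM) of all 53 clustered protocadherin genes in chromosomal order, 1 point per library, coloured by group, with the alpha, beta and gamma clusters in separate panels and the filter at -2 as a dashed line. PCDHA10, PCDHB2, PCDHB14 and PCDHB15 stand above their clusters, and the 22 gamma rows lie at nearly the same level, with PCDHGA11 and PCDHGC4 the highest.

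Gamma rows were the highest of the 3 clusters, and most of them held the same reads. In each library 18 to 21 of the 22 rows lay within 10 reads of the lowest, where the lowest row held 56 to 180 reads. The lowest row stood at 3.91 ± 0.37 RPM (SD, n = 3) in untransduced cells, 2.96 ± 0.43 with sg1-Control, 3.02 ± 0.10 with sg2-Control, 2.24 ± 0.54 with sg1-THAP1 and 2.54 ± 0.38 with sg2-THAP1 (n = 3 each). The 6 sgControl libraries ran from 2.47 to 3.25 RPM and the 6 sgTHAP1 libraries from 1.78 to 2.92, so these groups overlapped, while the untransduced libraries (3.48 to 4.16) lay above both. The 22 rows are therefore not 22 measurements, and a count of gamma rows called is close to 1 measurement written many times.

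Reads above the lowest row describe the variable exons, and they were concentrated in 3 genes. PCDHGA11, an A-type gene, had the most, 1027 of its 2648 reads (38.8%) over the 15 libraries. PCDHGC4 and PCDHGC3, C-type genes at the end of the cluster, had 376 of 1997 (18.8%) and 170 of 1791 (9.5%). In the mouse, PCDHGC4 is the gamma isoform that interneurons need to survive. The lowest of the 22 rows was PCDHGA4 with 0.246%, and 19 of the 22 rows were under 5%. Per kb of exon, the shared gamma exons stood at 1.35 RPM, PCDHGA11 at 0.51, PCDHGC4 at 0.24 and PCDHGC3 at 0.093.

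**Figure D2:**
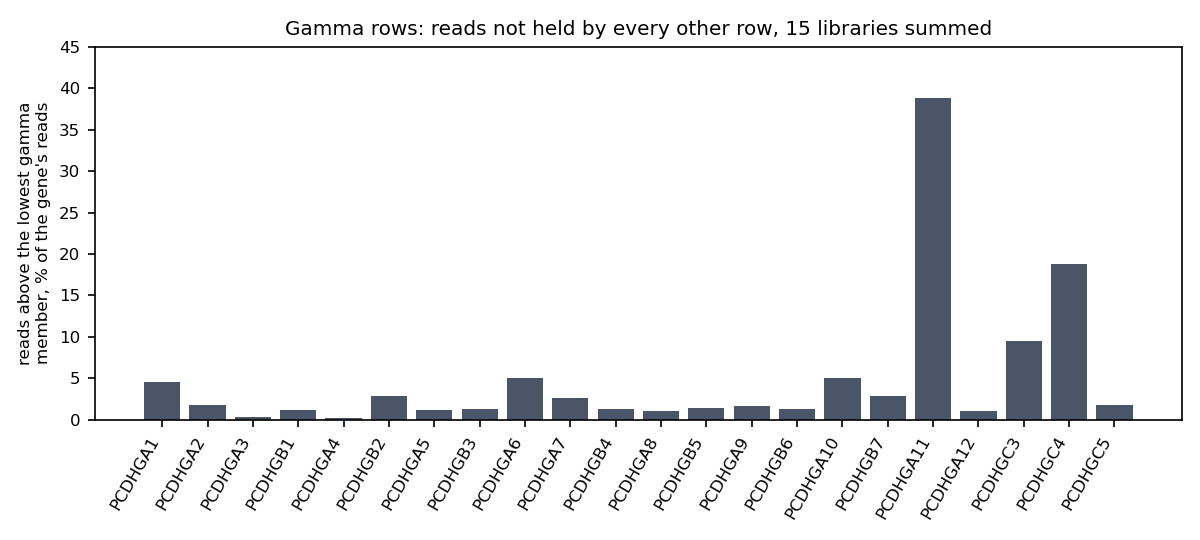
Reads above the lowest gamma row of the same library, as a percentage of each gene's reads, summed over the 15 libraries, with the 22 gamma genes in chromosomal order. PCDHGA11 (38.8%), PCDHGC4 (18.8%) and PCDHGC3 (9.5%) stand apart from the other 19.

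PCDHGA11 kept 39, 99 and 38 reads above the lowest row in untransduced cells, 97, 125 and 62 with sg1-Control, 62, 96 and 68 with sg2-Control, 41, 49 and 55 with sg1-THAP1, and 73, 54 and 69 with sg2-THAP1. PCDHGC4 kept 30, 40 and 43, then 50, 56 and 18, then 25, 35 and 20, then 7, 19 and 5, and then 5, 13 and 10 in the same order. PCDHGC3 kept 17, 18 and 8, then 21, 17 and 15, then 8, 10 and 4, then 4, 4 and 8, and then 4, 19 and 13. In RPM, PCDHGC4 ran from 0.987 to 1.41 in untransduced cells, from 0.508 to 1.10 in sgControl cells and from 0.157 to 0.604 in sgTHAP1 cells, where only sg1-THAP1 replicate 2 reached the range of sgControl. The ranges of PCDHGA11 (1.75 to 3.01 with sgControl and 1.34 to 2.28 with sgTHAP1) and of PCDHGC3 (0.114 to 0.423 and 0.125 to 0.495) overlapped.

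The comparison of sgTHAP1 with sgControl asked which genes respond to loss of THAP1, a zinc finger transcription factor. Here PCDHGC4 had the smallest adjusted p among the members. Its deposited level was 5.07, 5.25 and 4.89 RPM in untransduced cells, 3.46, 4.17 and 3.75 with sg1-Control, 3.66, 4.23 and 3.52 with sg2-Control, 3.07, 2.38 and 2.27 with sg1-THAP1, and 2.32, 3.26 and 2.74 with sg2-THAP1. All 6 sgTHAP1 libraries lay below all 6 sgControl libraries, and below all 9 libraries without a THAP1 guide. PCDHGC4 was the 1 member of 26 with this order, which 19.9% of all genes tested showed against sgControl and 12.9% against all 9. It fell by 0.52 on the log2 scale (SE 0.11, 95% interval -0.74 to -0.29, limma adjusted p = 0.000372), to 69.9% of the sgControl level.

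Since most reads of the PCDHGC4 row lay in every gamma row, the fit was repeated on reads above the lowest row. There PCDHGC4 fell by 1.63 (SE 0.32, 95% interval -2.29 to -0.97, limma adjusted p = 0.000203), to 32.3% of the sgControl level. This was past the numerical thresholds of the study (adjusted p under 0.001 and over 2-fold). The study first discounted genes that differed between untransduced cells and cells with control guides, a step not applied here. The deposited row of PCDHGC4 was not over 2-fold (-0.52). That row was also lower in sgControl than in untransduced cells (-0.42, limma adjusted p = 0.00772). With 0.5 RPM added before the log, which compresses low values, the reads above the lowest row changed by -0.74 (adjusted p = 0.0002) and were not over 2-fold. These reads fell with sg1-THAP1 by 1.46 (adjusted p = 0.000891) and with sg2-THAP1 by 1.80 (adjusted p = 7.35e-05), and the guides differed by 0.34 (95% interval -0.54 to 1.22, adjusted p = 0.579). In the deposited row PCDHGC4 also fell with each guide, by 0.57 with sg1-THAP1 (adjusted p = 0.000311) and by 0.46 with sg2-THAP1 (adjusted p = 0.00302). The deposited row stayed below an adjusted p of 0.05 under all 28 alternative settings that used it, the largest being 0.0067.

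PCDHA10 fell by 0.97 (SE 0.34, 95% interval -1.68 to -0.26, adjusted p = 0.0215), from 0.50 ± 0.17 RPM in sgControl to 0.27 ± 0.10 RPM in sgTHAP1 cells (SD, n = 6 each). The groups overlapped, since 1 sgTHAP1 library (sg1-THAP1 replicate 2, 0.381 RPM) lay above 1 sgControl library (0.367). Above the lowest alpha row it fell by 0.87 (adjusted p = 0.0377). The call was lost without sg1-THAP1 replicate 1 (-0.70, adjusted p = 0.0544) or without sg2-Control replicate 2 (-0.82, adjusted p = 0.0590), and also with no filter (adjusted p = 0.0995), with sg2-THAP1 alone (0.0634) or against sg1-Control alone (0.132).

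The other gamma rows fell together by a small amount. In all, 22 of the 26 members tested were called lower at an adjusted p under 0.05 and 0 higher, where 32.6% of all genes tested were lower and 20.2% higher. They were PCDHA10 and 21 of the 22 gamma rows, all but PCDHGA9 (-0.29, adjusted p = 0.0561). Apart from PCDHGC4, gamma log2 changes ran from -0.38 to -0.29, with a median of -0.34. None of the 26 passed the study's thresholds, which 2.18% of all genes passed. With limma, 0 members were higher at an unadjusted p under 0.05 and 0 were over 2-fold at that p, and voom on the recovered reads called 10 lower and 0 higher.

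Most of these calls depended on scaling and on single libraries. The median change was -0.35 over the 26 members and -0.065 over all genes, and under quantile normalization or median centring 2 members remained called, PCDHA10 and PCDHGC4. The count was 5 without sg1-THAP1 replicate 2, 9 and 10 without sg1-Control replicates 3 and 2, 10 without sg1-THAP1 replicate 3, 12 without sg2-THAP1 replicate 1 and 13 without sg2-Control replicate 2. After subtraction of the lowest row 10 members could be tested. Among them PCDHB2, PCDHB14 and PCDHB15 were unchanged, since no row was subtracted from beta genes. The others were PCDHA10, PCDHGA1, PCDHGA6, PCDHGA10, PCDHGA11, PCDHGC3 and PCDHGC4, tested on reads above the lowest row. The 2 called lower were PCDHA10 and PCDHGC4. PCDHGA11 changed there by -0.35 (95% interval -0.76 to 0.06, adjusted p = 0.139), PCDHGC3 by -0.42 (-1.30 to 0.45, adjusted p = 0.415) and PCDHGA6 by -1.31 (-2.50 to -0.12, adjusted p = 0.0609).

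The remaining gamma rows with the smallest adjusted p showed the shared level. PCDHGA6 stood at 4.31, 4.43 and 3.68 RPM in untransduced cells, 2.67, 3.28 and 3.36 with sg1-Control, 3.10, 3.32 and 3.32 with sg2-Control, 3.10, 1.78 and 2.24 with sg1-THAP1, and 2.25, 2.94 and 2.58 with sg2-THAP1 (log2 change -0.38, adjusted p = 0.0171). PCDHGB7 (-0.36, adjusted p = 0.0176), PCDHGC5, the last C-type gene (-0.36, adjusted p = 0.0204) and PCDHGB4 (-0.36, adjusted p = 0.0216) followed it. In sgControl and sgTHAP1 libraries PCDHGB7 ran from 2.51 to 3.42 and from 1.84 to 2.92 RPM, PCDHGC5 from 2.57 to 3.30 and from 1.78 to 2.92, and PCDHGB4 from 2.47 to 3.36 and from 1.78 to 2.92. PCDHGA11, the row with the highest level, changed by -0.33 (adjusted p = 0.0118), from 5.08 ± 0.62 to 4.03 ± 0.40 RPM (SD, n = 6 each), and PCDHGC3 by -0.35 (adjusted p = 0.0287), from 3.29 ± 0.29 to 2.62 ± 0.54.

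No beta gene passed the test. PCDHB2 changed by -0.79 (95% interval -1.64 to 0.05, adjusted p = 0.108), PCDHB14 by -1.23 (-2.51 to 0.05, adjusted p = 0.0984) and PCDHB15 by 0.25 (-0.64 to 1.13, adjusted p = 0.656). Without sg2-THAP1 replicate 3, its library with 28 reads, PCDHB2 fell by 1.09 (adjusted p = 0.0209). PCDHB14 fell by 1.86 with sg1-THAP1 alone (adjusted p = 0.0214) and by 1.65 against sg2-Control alone (adjusted p = 0.0449). The intervals span changes from a large fall to no change for PCDHB2 and PCDHB14, and at 1 to 28 reads a library such differences were not resolved.

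**Figure D3:**
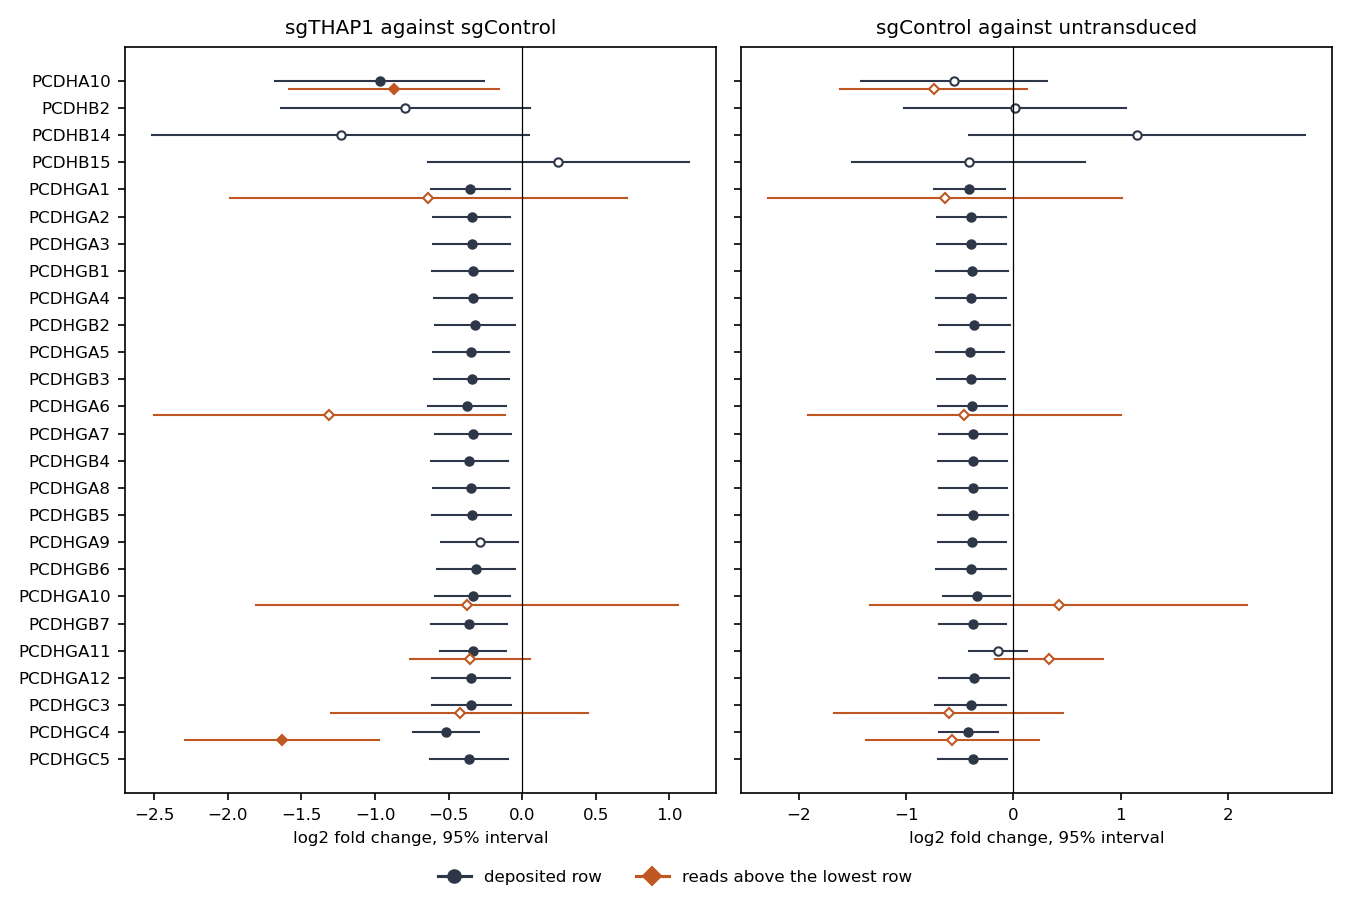
Log2 fold changes with 95% intervals (limma) of the 26 members tested, sgTHAP1 against sgControl on the left and sgControl against untransduced on the right. Circles are deposited rows and diamonds are reads above the lowest alpha or gamma row, filled at an adjusted p under 0.05. On the left the filled diamonds are PCDHGC4 (-1.63) and PCDHA10 (-0.87), and on the right no diamond is filled.

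The cells with control guides were set against untransduced cells as the background of the method, and gamma levels differed there too. Of the 26 members, 21 were called lower and 0 higher, where 40.5% of all genes were lower and 28.1% higher, and 0 passed the study's thresholds, which 11% of all genes passed. These 21 were gamma rows, at -0.42 to -0.34, and the exception was PCDHGA11 (-0.14, adjusted p = 0.335). At an unadjusted p under 0.05 limma gave 21 lower and 0 higher, with 0 over 2-fold, and voom also called 21 and 0. The direction depended on scaling: the median of all genes moved from -0.12 to -0.004 under quantile normalization and that of the members from -0.38 to 0.14, with 0 members called lower and 2 higher (PCDHB14 and PCDHGA11). Without untransduced replicate 1, untransduced replicate 2 or sg1-Control replicate 1, PCDHGC4 was the 1 member still called. Its deposited row fell by 0.42 between untransduced and sgControl cells (SE 0.13, 95% interval -0.69 to -0.15, adjusted p = 0.00772), and its reads above the lowest row changed by -0.57 (-1.38 to 0.24, adjusted p = 0.198). PCDHA10 changed by -0.55 (adjusted p = 0.244).

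The sgTHAP1 cells were also set against untransduced cells, a comparison that shares libraries with both of the others. There 23 members were lower and 0 higher, where 45.5% of all genes were lower and 26.9% higher, and 0 passed the study's thresholds, which 15.9% of genes passed. With limma at an unadjusted p under 0.05, 0 were higher and 1 was over 2-fold, and voom called 23 lower and 0 higher. The 23 were the 22 gamma rows and PCDHA10, which fell by 1.52 (95% interval -2.39 to -0.65, adjusted p = 0.00279), to 34.8% of the untransduced level. PCDHGC4 fell by 0.94 (-1.21 to -0.66) in its deposited row and to 21.8% of the untransduced level in the reads above the lowest row (95% interval of the log2 change -3.01 to -1.39, adjusted p = 3.8e-05). PCDHGA11 changed in the latter by -0.02 (-0.52 to 0.48, adjusted p = 0.943). Under quantile normalization the median of the members was -0.06 and PCDHGC4 was the 1 member called.

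**Figure D4:**
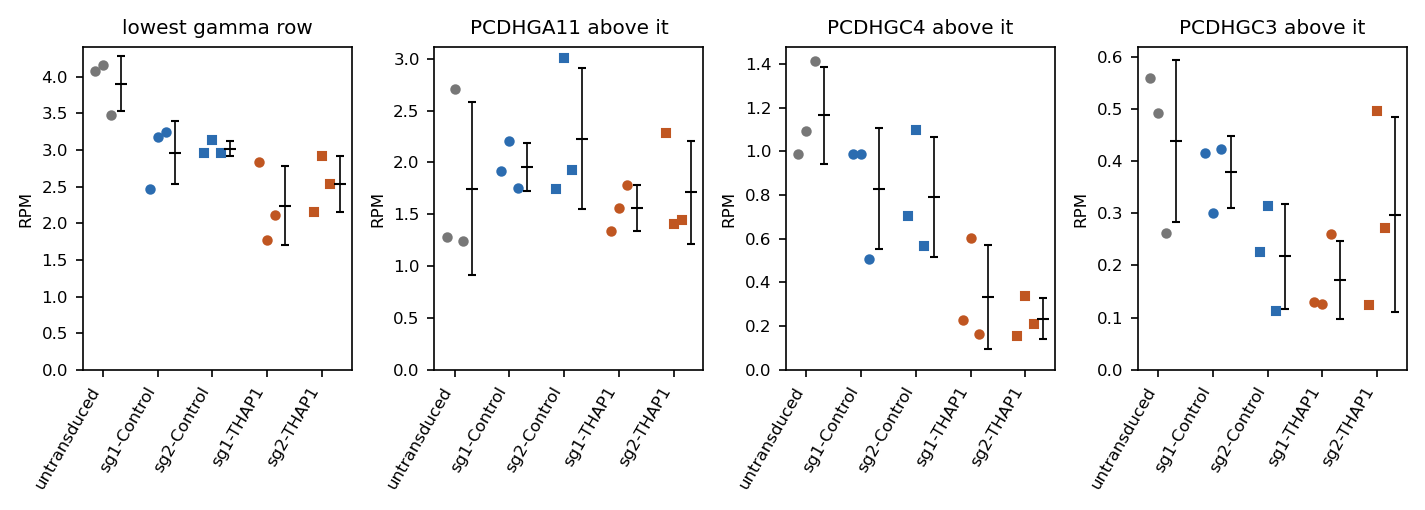
RPM of the lowest gamma row and of PCDHGA11, PCDHGC4 and PCDHGC3 above that row, 1 point per library in the 5 groups, with the group mean and SD (n = 3) as a bar beside the points. PCDHGC4 stands at 0.157 to 0.604 RPM in the 6 sgTHAP1 libraries and at 0.508 to 1.41 in the 9 others, and the lowest row overlaps between sgControl and sgTHAP1.

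The guides were compared within each condition. Between sg1-THAP1 and sg2-THAP1, limma called 0 of the 26 members, where 40% of all genes tested differed, and 0 members had an unadjusted p under 0.05 or were called by voom. Gamma differences ran from -0.26 to -0.11, with sg1-THAP1 the lower, and this difference was not past the test. Against sgControl, 24 members were lower with sg1-THAP1 alone, where 39.3% of all genes were lower, and 1, PCDHGC4, with sg2-THAP1 alone, where 30.6% were lower. These 2 counts do not show that the guides differed. For PCDHGC4 the difference between these guides was -0.11 (95% interval -0.42 to 0.21). Between sg1-Control and sg2-Control, 0 members differed with limma, at an unadjusted p under 0.05 or with voom, where 3.88% of all genes differed, and gamma differences ran from -0.09 to 0.04.

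Each cluster was also summed with the lowest alpha or gamma row counted 1 time and the reads above it added. The alpha sum was 0.99 ± 0.46 RPM in untransduced (n = 3), 0.60 ± 0.21 in sgControl and 0.38 ± 0.17 in sgTHAP1 cells (SD, n = 6 each). The beta sum was 1.06 ± 0.41, 1.14 ± 0.50 and 0.77 ± 0.16. The gamma sum was 8.71 ± 0.96, 7.44 ± 0.76 and 5.45 ± 0.65, and ran from 6.82 to 8.84 RPM in sgControl and from 4.42 to 6.17 in sgTHAP1 libraries. These ranges did not overlap, an order that 19.9% of all genes tested showed, while those of the lowest gamma row alone did. Alpha and beta sums overlapped between these groups. Added row by row, the gamma sum would have been 90.7, 70.2 and 55.6 RPM, since each shared read is then counted in up to 22 rows.

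Other genes of the system were followed as lists. Of the factors that fold or silence the clusters (CTCF, cohesin and its loaders, SMCHD1, SETDB1, TRIM28, DNA methylation enzymes and others), all 28 were tested, and 20 were lower and 1 higher in sgTHAP1 than in sgControl cells, where 32.6% and 20.2% of all genes were, with a median of -0.19 beside -0.065 for all genes. Those not called included CTCF (-0.08, limma adjusted p = 0.169), SETDB1 (-0.03, adjusted p = 0.482) and TRIM28 (0.04, adjusted p = 0.288). The cohesin subunit RAD21 was not called either (-0.08, adjusted p = 0.056). TET2, a DNA demethylase, fell by 0.72 (SE 0.06, adjusted p = 2.12e-09). The maintenance DNA methyltransferase DNMT1 fell by 0.31 (adjusted p = 9.82e-09), its recruiter UHRF1 by 0.55 (adjusted p = 1.07e-06) and the cohesin subunit STAG2 by 0.32 (adjusted p = 2.79e-07). From untransduced to sgControl cells, however, UHRF1 rose by 0.58 (limma adjusted p = 4.49e-06). Its mean log2 level was 7.07 in untransduced, 7.65 in sgControl and 7.10 in sgTHAP1 cells (6.9 to 7.35 in the latter). Between untransduced and sgControl cells TET2 rose by 0.17 (adjusted p = 0.0327) and STAG2 by 0.12 (adjusted p = 0.0244), and DNMT1 changed by 0.03 (adjusted p = 0.374). In sgControl against untransduced cells 6 of the 28 were lower and 17 higher, where 40.5% and 28.1% of all genes were, and in sgTHAP1 against untransduced cells 10 were lower and 7 higher (45.5% and 26.9% of all genes), with a median of -0.07.

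Protocadherins outside the clusters, which have genes of their own elsewhere in the genome, were tested for 9 of 12 names, and 5 were lower and 0 higher with sgTHAP1 (median -0.41), where 32.6% and 20.2% of all genes were. PCDH7 fell by 0.70 (SE 0.08, adjusted p = 6.94e-07), PCDH20 by 0.55 (adjusted p = 1.77e-05), PCDH18 by 0.96 (adjusted p = 0.000196) and PCDH9 by 0.20 (adjusted p = 0.00838). PCDH18 and PCDH9 were also lower in sgControl than in untransduced cells, by 1.70 (adjusted p = 1.52e-06) and 0.60 (adjusted p = 5.70e-07). Partners of the cytoplasmic tail (kinases, the proteases that cleave it and the WAVE complex, which drives actin assembly) were tested for all 20 names, of which 8 were lower and 4 higher (median -0.09), shares near the 32.6% and 20.2% of all genes. The WAVE subunits CYFIP2, CYFIP1 and NCKAP1 fell by 0.54 (adjusted p = 3.89e-07), 0.22 (adjusted p = 9.51e-06) and 0.24 (adjusted p = 0.000113), and the gamma-secretase subunit PSENEN rose by 0.23 (adjusted p = 6.55e-05). From untransduced to sgControl cells NCKAP1 rose by 0.25 (limma adjusted p = 0.000369). CYFIP2, CYFIP1 and PSENEN changed there by -0.09 (adjusted p = 0.314), 0.02 (adjusted p = 0.740) and 0.09 (adjusted p = 0.0964).

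Of 39 other rows within 200 kb of the clusters, 15 were tested, and 5 were lower and 4 higher with sgTHAP1 (median -0.04), again near the shares of all genes (32.6% and 20.2%). The largest rise was that of ZMAT2, a splicing factor gene, by 0.64 (adjusted p = 6.39e-11), while DIAPH1, a formin gene, fell by 0.34 (adjusted p = 1.17e-07), NDUFA2 rose by 0.29 (adjusted p = 1.08e-06) and FCHSD1 fell by 0.58 (adjusted p = 2.86e-06). TAF7, a general transcription factor gene that lies between the beta and gamma clusters, changed by -0.09 (adjusted p = 0.0155). In sgControl against untransduced cells 5 of the 15 were lower and 7 higher, where 40.5% and 28.1% of all genes were. There DIAPH1 rose by 0.68 (limma adjusted p = 3.51e-11) and ZMAT2 by 0.29 (adjusted p = 2.65e-05). FCHSD1 fell by 0.90 (adjusted p = 5.76e-08) and TAF7 by 0.20 (adjusted p = 6.12e-05), and NDUFA2 changed by 0.02 (adjusted p = 0.709).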

How the data were processed

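RNA-seq values per gene of 15 HEK-293T libraries were used. The authors trimmed reads of strand-specific polyA+ libraries with Cutadapt, aligned them to GRCh38 with HISAT2 and quantified genes in SeqMonk, and they deposited log2 RPM values. For the annotation release, the use of strand and the treatment of overlapping genes, details were not given in the sources used here. The columns of the authors' own fold changes and group means were not used. A gene without reads is listed at 0.9 of a read. Low values rise in even steps, which gave back reads, and 99.65% to 99.88% of the values of a library were whole within 0.01. Among them 1 occurred 22734 times, 2 occurred 6768 times and 3 occurred 9885 times, so odd numbers were in excess, and what 1 unit stands for (a read, a mate) is not given in the sources used here.

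Groups came from the sample labels, sgControl and sgTHAP1 each joining both guides, and the study calls the replicates biological. The main test was limma (version 3.58.1, R 4.3.3), lmFit and eBayes with a trend on the deposited log2 values of all 15 libraries, over the 16787 genes with log2 of at least -2 in at least 3 libraries, with Benjamini-Hochberg adjustment over all of them. A second fit had 1 coefficient per guide group. The pooled fit counts libraries of the same guide as independent. All p-values of the text are from limma, by these fits or by the named alternatives, and differences are on the log2 scale. A further fit was made after subtracting the lowest row of the cluster in each library from the 15 alpha and 22 gamma rows. The filter was applied again to what remained, and beta rows were left as they were. On simulated data for sgTHAP1 against sgControl the test was checked before use. The alternatives were no filter or log2 of at least 0, log2(RPM + 0.5), array weights, voom on the reads recovered, centring on library medians, quantile normalization, a replicate block, a 2-fold limit, single guides and each library left out. The settings tried on the subtracted PCDHGC4 reads were chosen after seeing the data.

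The genes, the lists and the tests were chosen with earlier results of these data known. By rule, the members named were the 3 of each cluster with the highest mean level and the C-type genes. To these came up to 6 per cluster with the smallest adjusted p in sgTHAP1 against sgControl. Their values are given per library, or as a range for PCDHGB7, PCDHGC5 and PCDHGB4. Up to 4 genes of each other list were named by the smallest adjusted p, mostly with log2 changes only. PCDHGA9, PCDHGA4, PCDHA9, PCDHB8 and TAF7 were named after their values were seen, as were genes that formed counts of 5 or fewer. The values of CTCF, SETDB1, TRIM28 and RAD21 were also added after they were seen. Sequences are from RefSeq (GRCh38.p14) and GRCh38. In the table, WAPL is listed as WAPAL.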

Additional observations from a re-analysis of the deposited data

Results flagged for a closer look

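The check covered the 11 tested members named by rule, in 6 sgControl and 6 sgTHAP1 libraries (22 groups of values). The other members tested were not checked. Of the 22 groups, 4 held a library far from the other 5, by Dixon's ratio of the gap to the range at its 95% limit. Chance alone gives about 1 in 20. PCDHA10 stood at log2 -3.353 (3 reads) in sg1-THAP1 replicate 1 and at -2.092 to -1.391 in the other sgTHAP1 libraries. In sg1-Control replicate 1, PCDHGA6 stood at 1.415, below 1.631 to 1.748 in the other sgControl libraries, PCDHGB4 at 1.304 (others 1.591 to 1.748) and PCDHGB7 at 1.327 (others 1.618 to 1.772). These 3 rows hold mostly the same reads, so they are 1 low value of the shared gamma exons and not 3. Comparing sg1-THAP1 with sg2-THAP1, no member was past the threshold.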

How the results depend on the processing

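The main limits were the shared constant exons, the scaling between libraries and the low counts of alpha and beta genes. PCDHGC4 was lower in sgTHAP1 than in sgControl cells under all 28 alternatives on the deposited row (-0.58 to -0.36, adjusted p from 7.13e-05 to 0.0067), and its reads above the lowest row under all 20 (-1.88 to -0.74, the last with a pseudocount of 0.5, adjusted p from 1.26e-05 to 0.000831). The number of members called lower in sgTHAP1 against sgControl (22) was 7 with no filter, 10 with voom, 2 with quantile normalization, with median centring and after subtraction of the lowest row, 0 with a 2-fold limit, 1 with sg2-THAP1 alone, 4 against sg1-Control alone, and 5 to 23 with a library left out. In sgControl against untransduced cells (21 lower), it was 4 with no filter, 0 with quantile normalization (which called 2 higher), median centring, subtraction or a 2-fold limit, and 1 to 21 with a library left out. In sgTHAP1 against untransduced cells (23 lower), it was 1 with quantile normalization, 3 after subtraction, 1 with a 2-fold limit, and 23 to 24 with a library left out. After subtraction 10 members could be tested in place of 26, so most gamma rows could not be called there. Between the THAP1 guides 0 to 1 members differed with a library left out (1, PCDHGB2, without sg1-THAP1 replicate 1), and between the control guides 1 (PCDHB5) with no filter. The cause of these shifts was not tested, apart from the smaller number of genes and libraries that subtraction and omission leave. Samples with the same replicate number did not deviate together (correlation -0.131 to 0.0441 over 30 pairs), so the numbers do not pair them. With a replicate block 19 members were lower in sgTHAP1 against sgControl and 16 in sgControl against untransduced cells.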

Other observations

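A long non-coding RNA row between TAF7 and PCDHGA1, AC005618.6 (chr5:141326210-141329357, plus strand), was too low to be tested and was singled out after its values were seen. It had 10, 5 and 11 reads in untransduced cells, 11, 4 and 5 with sg1-Control, 1, 3 and 3 with sg2-Control, 0, 1 and 1 with sg1-THAP1, and 4, 1 and 5 with sg2-THAP1.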
